A study of Homo sapiens with 30 samples.

Results

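The genes described here encode the adhesion and cytoskeletal proteins by which epithelial and mesenchymal cells are usually told apart. They are the cadherins CDH1, CDH2 and CDH3, the tight junction genes CLDN3, CLDN4, CLDN7 and OCLN, and the mesenchymal markers VIM and FN1. They were taken by symbol, as every array probe annotated with 1 of 10 names, which gave 14 probes of 9 genes among 41000 probes with 30484 names. The tenth name, EPCAM, was not used by the array design. Its older symbol TACSTD1 was present with 1 probe, whose transcript accession RefSeq assigns to EPCAM, and that probe is given beside the 14 and is not counted with them.

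The samples were 5 human breast cancer cell lines, HCC1954, MDA-MB-231, MDA-MB-361, T-47D and ZR-75-30, each treated with BMP7 at 50 ng/ml or with vehicle, over 6 time points (30 min and then 1, 3, 6, 12 and 24 h). Each line and time point was 1 two-colour array, 30 in all, with RNA of vehicle-treated cells in Cy3 and of BMP7-treated cells in Cy5, and no array had the dyes swapped. Each RNA came from 3 cultures pooled, so single cultures were not measured, and each line stands for 1 tumour. MDA-MB-231 was cultured in 1% FBS and T-47D in 5% FBS, unlike the other lines, so serum and cell line cannot be told apart for these lines.

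Cadherins hold neighbouring cells together through calcium-dependent contacts that are anchored to actin by catenins. Claudins and occludin form the tight junctions that seal epithelial sheets, and EPCAM is a surface glycoprotein of epithelial cells. In epithelial-mesenchymal transition these proteins are lost while vimentin, an intermediate filament protein, fibronectin and N-cadherin appear, and BMP7, a ligand of the TGF-β superfamily, is known for opposing that switch in several tissues.

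Levels are given as log2 of the vehicle signal after scaling between arrays. They compare 1 probe across lines and never a probe with another probe. A level was called different at a Benjamini-Hochberg adjusted p under 0.05 in limma together with a difference of at least 2-fold, and a BMP7 log ratio at that adjusted p alone. The 6 time points of a line served as its arrays, so the p-values measure the spread between these arrays and not between independent cultures. In such bulk RNA, fewer cells expressing a gene and less RNA per cell cannot be told apart.

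The arrays matched their labels at the level of the line, since the most similar vehicle profile came from the same line for 30 of 30 arrays. Between 54.6% and 69.1% of probes were well above background in both channels of an array, and no member probe was saturated in the vehicle channel. Among 8 markers of other cell types, PTPRC, COL1A2 and DCN were not well above background on any array, whereas CD3E and CD14 were so on 29 and 30 arrays, at line means from 5.59 to 7.29, and PECAM1, VWF and COL1A1 on part of the arrays, with PECAM1 highest in HCC1954 (8.76). Their part in the results was not tested. The keratins KRT8 and KRT18 were well above background on all arrays of each line. The known BMP target genes ID1, ID2 and ID3 had log ratios above 0 on 29, 29 and 25 of the 30 arrays. The MDA-MB-231 6 h array was the dimmest and had 2741 spots marked as outliers by the software, and the results that rest on it are given with and without it.

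MDA-MB-231 differed from the mean of the other 4 lines for each of the 9 adhesion genes, although not from every line for CDH2, CLDN4 and OCLN. It had 159-fold less CDH1, 218-fold less CDH3, 34.8-fold less CLDN3 and 27.4-fold less CLDN7 than the mean of the other lines, and 344-fold more VIM. After normexp background correction with loess the log2 differences stayed called and were smaller, at -6.23 in place of -7.77 for CDH3, 7.51 in place of 8.43 for VIM and -4.45 in place of -5.12 for CLDN3. All 14 probes passed the test, 8 lower and 6 higher, against 26.2% of all probes (13.1% lower and 13.0% higher). The arrays of MDA-MB-231 did not overlap with any of the 24 other arrays for 4 of the 8 lower probes and 5 of the 6 higher ones, whereas 4.29% of all probes lay entirely below and 4.61% entirely above. VIM was also high in HCC1954 and CDH2 was also present in MDA-MB-361, so the order of the lines differed from gene to gene.

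**Figure D1:**
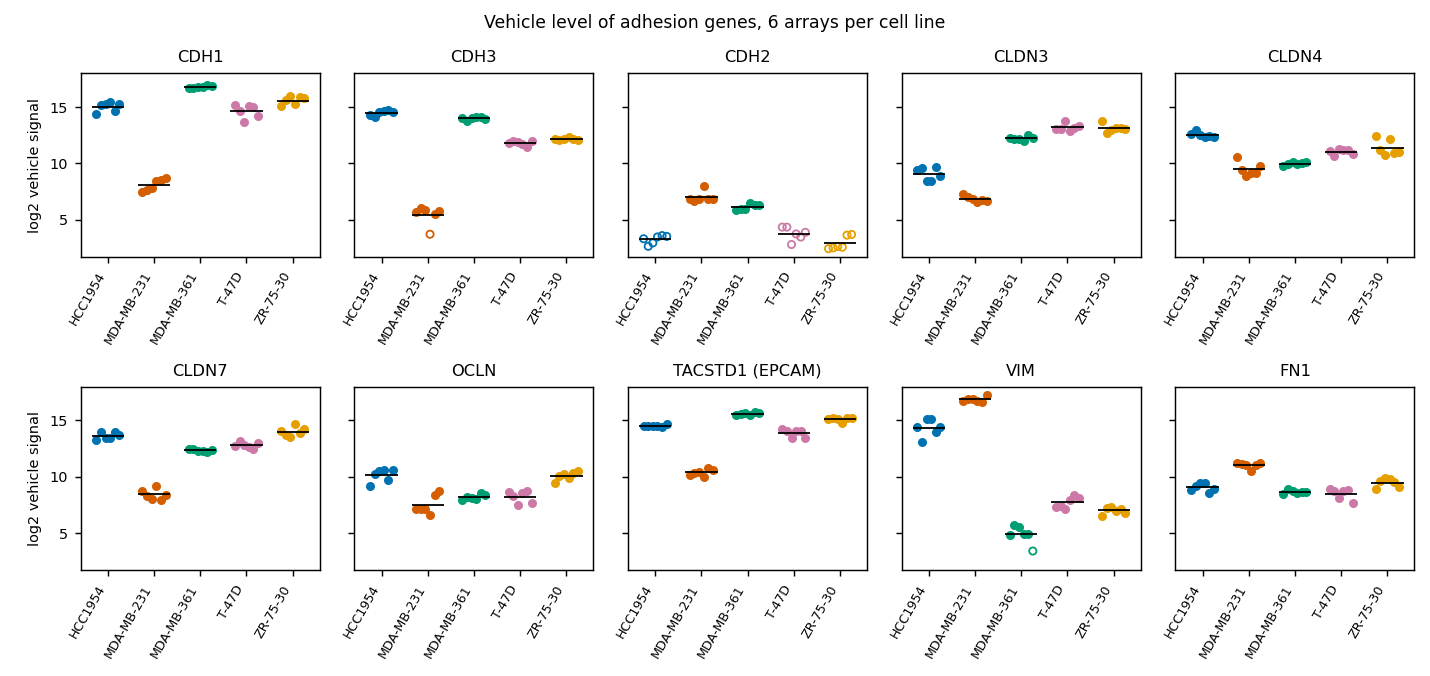
Vehicle level (log2 signal) of each member gene's probe and of TACSTD1 on the 6 arrays of each cell line; points are arrays (open where the signal was not well above background) and bars are line means. MDA-MB-231 is lowest for CDH1, CDH3, CLDN3 and CLDN7 and highest for VIM, CDH2 and FN1, and HCC1954 lies second for VIM.

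CDH1 encodes E-cadherin, the cadherin of epithelial adherens junctions, and its probe A_23_P206359 lies at chr16:67426715-67426774 (hg18). In MDA-MB-231 the level ran from 7.51 to 8.70 with a median of 8.14. In T-47D it ran from 13.72 to 15.17 with a median of 14.84. The lowest array of the 4 CDH1-high lines was thus far above the highest MDA-MB-231 array. In HCC1954 the level was 14.43 to 15.43, median 15.20, and in ZR-75-30 it was 15.06 to 15.95, median 15.71. MDA-MB-361 was highest at 16.65 to 16.97, median 16.79, and none of its arrays overlapped with another line. The contrast of MDA-MB-231 was -7.32 log2 units (SE 0.21, adjusted p = 2.51e-22). Of the 10 pairs of lines, 7 passed, namely the pairs that held MDA-MB-231 or MDA-MB-361. ZR-75-30, HCC1954 and T-47D did not pass both thresholds against each other, with 1.00 (adjusted p = 0.00381), just under 2-fold, between ZR-75-30 and T-47D, 0.61 (SE 0.27, adjusted p = 0.0803) between ZR-75-30 and HCC1954 and 0.39 (SE 0.28, adjusted p = 0.303) between HCC1954 and T-47D.

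CDH3 encodes P-cadherin, a cadherin of basal epithelial layers, and lies next to CDH1 on chromosome 16 (probe A_23_P49155, chr16:67290313-67290372, hg18). HCC1954 had 14.16 to 14.77, median 14.55, and MDA-MB-361 13.81 to 14.10, median 14.05. ZR-75-30 followed with 12.08 to 12.34, median 12.16, and T-47D with 11.44 to 11.99, median 11.88. The lines thus formed an upper and a lower pair, whose members did not pass against each other (0.49, SE 0.31, adjusted p = 0.227, and 0.46, SE 0.29, adjusted p = 0.224). MDA-MB-231 had 3.73 to 6.04, median 5.72, and was well above background on 5 of 6 arrays. Its 6 h array gave the value of 3.73 while the other arrays lay between 5.50 and 6.04. The contrast was -7.77 (SE 0.22, adjusted p = 1.77e-22), and -7.37 without that array.

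CDH2 encodes N-cadherin, the cadherin of neural and mesenchymal cells (probe A_23_P38732, chr18:23786079-23786138, hg18). It was well above background on 6 of 6 arrays in MDA-MB-231 and in MDA-MB-361 and on none of the arrays of the other 3 lines. MDA-MB-231 had 6.71 to 7.98, median 6.83, and the highest of these was again the 6 h array, with the others at 6.84 or below. Its fitted log2 difference from the mean of the other lines was 3.08 (SE 0.23, adjusted p = 2.34e-12, and 8.39e-12 without that array), with a bound of at least 4.28-fold. After normexp correction with loess the fitted log2 difference was 1.1, so the bound holds only without that correction. MDA-MB-361 had 5.85 to 6.52, median 6.14, although it was also the line with the most CDH1 and the least VIM. MDA-MB-231 was at least 6.79-fold above HCC1954, 4.96-fold above T-47D and 5.5-fold above ZR-75-30. MDA-MB-361 was at least 3.76-fold, 2.75-fold and 3.04-fold above the same lines. These bounds, taken without normexp correction, set a dim array at the lowest signal measured well above background on it, and all of these levels were read in Cy3. MDA-MB-231 and MDA-MB-361 differed by 0.92 (SE 0.32, adjusted p = 0.022), which was under 2-fold and was not called.

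CLDN3 and CLDN7 followed CDH1 in being lowest in MDA-MB-231, and the other tight junction genes did so to a smaller extent. The 250 bases before the annotated transcript starts of the members were searched for the E-box CAGGTG, or CACCTG on the other strand, the core sequence that repressors of the SNAI and ZEB families are known to bind. CDH1 and CDH3 were not searched. RefSeq (GRCh38.p14) gave 10 such windows for 7 members, of which 3 held the motif, and 17.5% of 35116 windows of all genes held it. The matches are shown because CLDN7 and OCLN are the members in whose windows they were found. Each stretch is read 5′ to 3′ on the gene's strand with the motif in capitals.

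OCLN, chr5:69492502-69492531, plus strand: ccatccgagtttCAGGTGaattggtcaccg
OCLN, chr5:69492645-69492674, plus strand: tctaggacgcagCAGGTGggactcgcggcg
CLDN7, chr17:7262635-7262664, minus strand: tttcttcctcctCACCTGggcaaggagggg
CLDN7, chr17:7262596-7262625, minus strand: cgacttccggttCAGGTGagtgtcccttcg
CLDN7, chr17:7262479-7262508, minus strand: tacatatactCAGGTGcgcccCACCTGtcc

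The CLDN7 stretches come from 1 window that held 4 motifs, a number reached by 43 windows or 0.122% of all. A match describes the letters of the reference and says nothing of a bound factor in these cells. The windows of CLDN3, CLDN4, VIM, FN1 and CDH2 did not hold the letters.

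CLDN3 encodes a sealing claudin and had 2 probes. The brighter one (A_23_P71017, chr7:72821299-72821358, hg18) gave 12.85 to 13.80, median 13.12, in T-47D and 12.67 to 13.78, median 13.09, in ZR-75-30. MDA-MB-361 had 12.00 to 12.55, median 12.22. These 3 lines did not pass both thresholds against each other, although T-47D lay above MDA-MB-361 by nearly 2-fold (1.98-fold, adjusted p = 0.00384). HCC1954 was clearly lower at 8.43 to 9.73, median 9.16, and MDA-MB-231 lowest at 6.60 to 7.33, median 6.80. HCC1954 was 8.76-fold below MDA-MB-361 (log2 difference 3.13, SE 0.27, adjusted p = 8.94e-11) and 4.95-fold above MDA-MB-231 (2.31, SE 0.25, adjusted p = 9.64e-09). CLDN3 thus separated HCC1954 from the other CDH1-high lines. The second probe (A_24_P35109, chr7:72821914-72821973, hg18) gave the same order of lines with smaller differences, -2.97 for MDA-MB-231 against -5.12 with the brighter probe, and its MDA-MB-231 arrays (6.14 to 7.02) overlapped with those of HCC1954 (6.92 to 8.30).

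CLDN7, another claudin of epithelial tight junctions, did not separate HCC1954 in this way (probe A_23_P164284, chr17:7104546-7104710, hg18). ZR-75-30 had 13.57 to 14.64, median 13.96, and HCC1954 13.30 to 13.98, median 13.60. T-47D had 12.50 to 13.15, median 12.76, and MDA-MB-361 12.17 to 12.47, median 12.35. No neighbours in this order passed both thresholds until MDA-MB-231, which had 7.97 to 9.18, median 8.34, and lay 15.3-fold below MDA-MB-361 (3.93, SE 0.22, adjusted p = 4.56e-15). Its contrast with the mean of the other lines was -4.78 (SE 0.16, adjusted p = 8.65e-21).

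CLDN4, a claudin that is also a receptor for a clostridial toxin, was highest in HCC1954 (probe A_24_P115183, chr7:72883891-72883950, hg18). HCC1954 had 12.32 to 12.93, median 12.50, above 11.25 or less in T-47D and 10.14 or less in MDA-MB-361. ZR-75-30 spread from 10.79 to 12.46, median 11.07, and MDA-MB-231 from 8.93 to 10.59, median 9.30. The wide spread came from the ZR-75-30 arrays at 30 min (12.46) and 6 h (12.14) and the MDA-MB-231 array at 30 min (10.59), which were scanned in the second of 2 scan batches. The other second-batch arrays did not stand high in their lines by so much, at 9.13 for MDA-MB-231 at 6 h, 11.25 for T-47D at 3 h and 12.58 for HCC1954 at 30 min. MDA-MB-231 was 3.66-fold below the mean of the other lines (-1.87, SE 0.21, adjusted p = 1.16e-08) but did not pass against MDA-MB-361 (0.63, SE 0.30, adjusted p = 0.0927).

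OCLN encodes occludin, a tight junction protein that spans the membrane, and its 2 probes (A_23_P92672, chr5:68885271-68885330, and A_24_P102053, chr5:68883142-68885185, hg18) gave the same upper and lower lines. HCC1954 had 9.21 to 10.62, median 10.36, and ZR-75-30 9.45 to 10.47, median 10.17, with the brighter probe. T-47D had 7.48 to 8.76, median 8.41, MDA-MB-361 7.96 to 8.52, median 8.18, and MDA-MB-231 6.65 to 8.72, median 7.17. The upper pair did not differ beyond its spread, and neither did the 3 lower lines, where MDA-MB-231 and MDA-MB-361 differed by 0.67 (SE 0.34, adjusted p = 0.128). The contrasts of MDA-MB-231 were the smallest among the epithelial members, at -1.59 (SE 0.25, adjusted p = 2.98e-06) and -1.21 (SE 0.24, adjusted p = 9.04e-05), and the latter was -0.90 after normexp correction with loess, under 2-fold and not called.

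TACSTD1, the array's name for EPCAM, followed CDH1 more closely than any member did (probe A_23_P91081, chr2:47467398-47467457, hg18). MDA-MB-361 had 15.46 to 15.71, median 15.59, and ZR-75-30 14.80 to 15.24, median 15.18. HCC1954 had 14.39 to 14.68, median 14.52, and T-47D 13.46 to 14.27, median 14.02. MDA-MB-231 had 10.01 to 10.79, median 10.40, 20.9-fold below the mean of the others (-4.39, SE 0.11, adjusted p = 3.42e-23). The level remained well above background on all 6 MDA-MB-231 arrays.

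VIM encodes vimentin and spanned the widest range of the members. With the brighter probe (A_23_P161190, chr10:17318353-17319262, hg18) MDA-MB-231 had 16.64 to 17.26, median 16.80, and HCC1954 13.10 to 15.13, median 14.39. T-47D had 7.12 to 8.39, median 7.70, ZR-75-30 6.55 to 7.34, median 7.08, and MDA-MB-361 3.42 to 5.74, median 4.93. HCC1954 was 103-fold above T-47D (6.68, SE 0.40, adjusted p = 1.82e-14) and only 5.81-fold below MDA-MB-231 (2.54, SE 0.39, adjusted p = 2.96e-06), while its CDH1 did not pass against that of T-47D or ZR-75-30. HCC1954 thus carried high VIM together with high CDH1. The second probe (A_23_P161194, chr10:17317191-17317250, hg18) was not well above background on any MDA-MB-361 array. With it, and without normexp correction, MDA-MB-231 was at least 5090-fold and HCC1954 at least 561-fold above MDA-MB-361. The contrast of MDA-MB-231 for this probe was 8.90, and 7.79 after normexp correction with loess. T-47D and ZR-75-30 did not pass against each other with either probe.

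FN1 encodes fibronectin, an extracellular matrix glycoprotein, and had 3 probes. The brightest (A_24_P119745, chr2:215934577-215934978, hg18) gave 10.49 to 11.20, median 11.10, in MDA-MB-231 and 8.90 to 9.87, median 9.60, in ZR-75-30. HCC1954 had 8.54 to 9.45, median 9.05, T-47D 7.68 to 8.94, median 8.75, and MDA-MB-361 8.51 to 8.90, median 8.64. MDA-MB-231 was 2.89-fold above ZR-75-30 (1.53, SE 0.22, adjusted p = 1.01e-06), and no other neighbours in the order differed beyond their spread. Of the other probes, A_24_P334130 (chr2:215996462-215997140, hg18) was well above background on 6 of 6 arrays in MDA-MB-231, on 1 in HCC1954 and on none elsewhere, which gave bounds of at least 2.11-fold over MDA-MB-361, 1.77-fold over T-47D and 1.93-fold over ZR-75-30. Its fitted contrast of 2.09 was 0.53 after normexp correction with loess and then not called. The remaining probe, A_24_P85539 (chr2:215943371-215944906, hg18), gave 7.21 to 8.51 on 5 MDA-MB-231 arrays, above the 7.13 or less of all other lines, and 5.24 on the 6 h array, which was not well above background. Its contrast was 1.65 (SE 0.41, adjusted p = 0.00129), and 2.23 (adjusted p = 5.18e-06) without that array. It was 0.93 after normexp correction with loess and 1.30 without scaling between arrays, not called in either case.

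**Figure D2:**
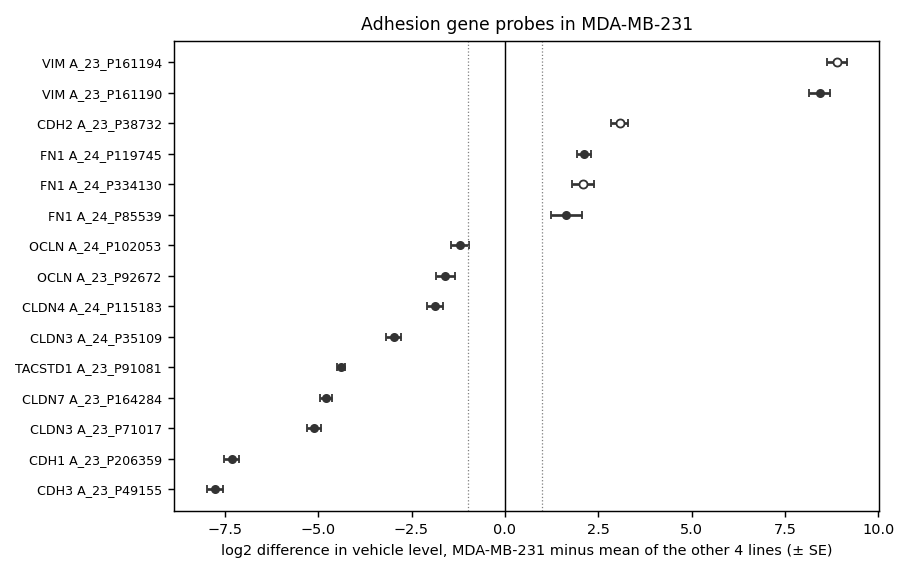
Difference in vehicle level between MDA-MB-231 and the mean of the other 4 lines (log2, limma estimate with its standard error) for each of the 14 member probes and TACSTD1, with dotted lines at a 2-fold difference. Open points mark probes with at least 1 line not well above background on any array. Their bounds, without normexp correction, are at least 437-fold (VIM) and 4.28-fold (CDH2). None is given for FN1, for which 1 HCC1954 array was well above background. The other estimates run from -7.77 for CDH3 to 8.43 for VIM, and 5 of the 6 higher probes belong to VIM and FN1.

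Over all 10 pairs of lines, 93 of 140 comparisons of a member probe passed, against 28.1% of the comparisons of all probes. Between MDA-MB-231 and HCC1954 13 of 14 probes passed (24.6% of all probes), as did 13 against ZR-75-30 (29.5%), 12 against T-47D (31.7%) and 10 against MDA-MB-361 (33.5%). Among the other lines, HCC1954 differed from MDA-MB-361 in 10 (30.6%), from T-47D in 8 (27.0%) and from ZR-75-30 in 6 (23.8%). MDA-MB-361 differed from ZR-75-30 in 9 (24.3%) and from T-47D in 8 (28.2%), and T-47D and ZR-75-30 differed in 4 (27.8%), the fewest of the 10 pairs. The members did not order the lines alike. Over the 30 arrays, which share lines and scaling, the level of CDH1 had a Pearson r of 0.988 with TACSTD1, 0.934 with CDH3, 0.877 with CLDN7 and 0.774 with CLDN3, but 0.455 with CLDN4. That of VIM had an r of -0.931 with CLDN3, -0.789 with CDH1 and 0.003 with CLDN4. Among 15913 named genes, CDC42BPG (0.991), PRR15L (0.990) and EPCAM through the TACSTD1 probe (0.988) were most like CDH1, and INHBA (0.978) and MAP4 (0.977) were among the 3 most like VIM. These values describe 5 lines measured 6 times and carry no test.

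Other genes of the junctions and of both states were read from lists, for a contrast in which 13.1% of all probes were lower and 13.0% higher. Minimum folds for these genes were taken without normexp correction. Of 20 further epithelial genes, 18 were lower in MDA-MB-231 and none was higher, with a median of -5.45 against -0.03 over all probes. LAD1, a basement membrane anchoring protein, was at least 658-fold lower, OVOL1 at least 118-fold and GRHL2 at least 87.4-fold lower, the last 2 being transcription factors of epithelial cells, and none of the 3 was well above background on any MDA-MB-231 array. Of 23 further mesenchymal genes, 20 were higher and none was lower, with a median of 4.69. MSN, which links actin to the membrane, was at least 220-fold higher and the receptor tyrosine kinase AXL 536-fold higher (9.07, SE 0.35, adjusted p = 3.63e-19). MSN was also high in HCC1954, at a mean of 13.88 against 14.66 in MDA-MB-231.

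The junction lists were more mixed than the lists of state, and their counts stand beside the same 13.1% lower and 13.0% higher of all probes. Of 24 other tight junction genes 10 were lower and 4 higher, with TJP3, a scaffold protein, at least 25.8-fold lower and the polarity gene CRB3 17.6-fold lower (-4.13, SE 0.15, adjusted p = 2.02e-19). Of 12 catenins and nectins 3 were lower and 2 higher, among them JUP, which encodes plakoglobin, 21.4-fold lower. The nectin PVRL3 was higher (adjusted p = 1.52e-16 in limma), at 11.18, and was also high in MDA-MB-361 (9.44). No minimum fold is given for PVRL3, since T-47D and ZR-75-30 were well above background on 4 arrays each. Of 13 desmosome genes 5 were lower and none higher. Of 7 other cadherins CDH11 (adjusted p = 3.95e-17 in limma) and CDH4 (adjusted p = 1.16e-21) were higher, and CDH15 was 3.56-fold lower. No minimum fold is given for CDH11 and CDH4, since 2 ZR-75-30 arrays and 1 MDA-MB-361 array, respectively, were well above background. Like VIM, CDH11 was also high in HCC1954 (10.03 against 12.03 in MDA-MB-231).

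Among 10 transcription factors of epithelial-mesenchymal transition, 3 were higher in MDA-MB-231 and 4 lower, against 13.0% and 13.1% of all probes. ZEB2 and ZEB1, both repressors of CDH1, were higher (adjusted p = 1.24e-18 and 3.53e-10 in limma), at means of 8.11 and 6.09 in MDA-MB-231. No minimum fold is given for them, since 1 HCC1954 array for ZEB2 and 1 ZR-75-30 array for ZEB1 were well above background. SNAI2 was also higher (adjusted p = 5.62e-10 in limma), at 11.37 in MDA-MB-231, 10.55 in HCC1954 and 7.89 in MDA-MB-361, and was well above background on only 1 T-47D and 3 ZR-75-30 arrays. The lower ones in limma were SNAI3 (adjusted p = 2.57e-13), TWIST2 (adjusted p = 0.00191), TWIST1, 3.85-fold (adjusted p = 1.55e-10), and TCF4 (adjusted p = 2e-05). Of these, SNAI3 and TWIST2 were not well above background on any MDA-MB-231 array and TCF4 was so on 2. No array of HCC1954 was well above background for SNAI3 or TCF4, and none of MDA-MB-361 or T-47D for TWIST2. No minimum fold is therefore given for SNAI3, TWIST2 and TCF4. TWIST1, TWIST2 and TCF4 were chosen after their values were seen. TCF4 was high in MDA-MB-361 (8.73) and T-47D (8.91) and TWIST2 in HCC1954 (7.68). In HCC1954 ZEB1 was not well above background on any array and ZEB2 was well above it on 1. All 7 luminal and ERBB2 markers were lower in MDA-MB-231, and the basal keratins KRT5 (12.75) and KRT17 (14.59) were highest in HCC1954.

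The response to BMP7 was small for all adhesion genes beside these differences between lines. None of the 14 probes passed the limma test of the mean log ratio over lines, against 0.00976% of all probes, which were 4 probes. An unadjusted p under 0.05 was found for 3 of the 14 and for 6324 of all 41000 probes. The targets ID1 (0.81, adjusted p = 0.127), ID2 (0.91, adjusted p = 0.0993) and ID3 (0.63, adjusted p = 0.175) did not pass this test either. The value nearest to the threshold was that of CLDN3, whose brighter probe was lower in BMP7-treated cells on 28 of 30 arrays and in 5 of 5 lines. Same-sided values on at least 28 arrays were found for 1.03% of all probes, and means of the same sign in all 5 lines for 13.1%.

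**Figure D3:**
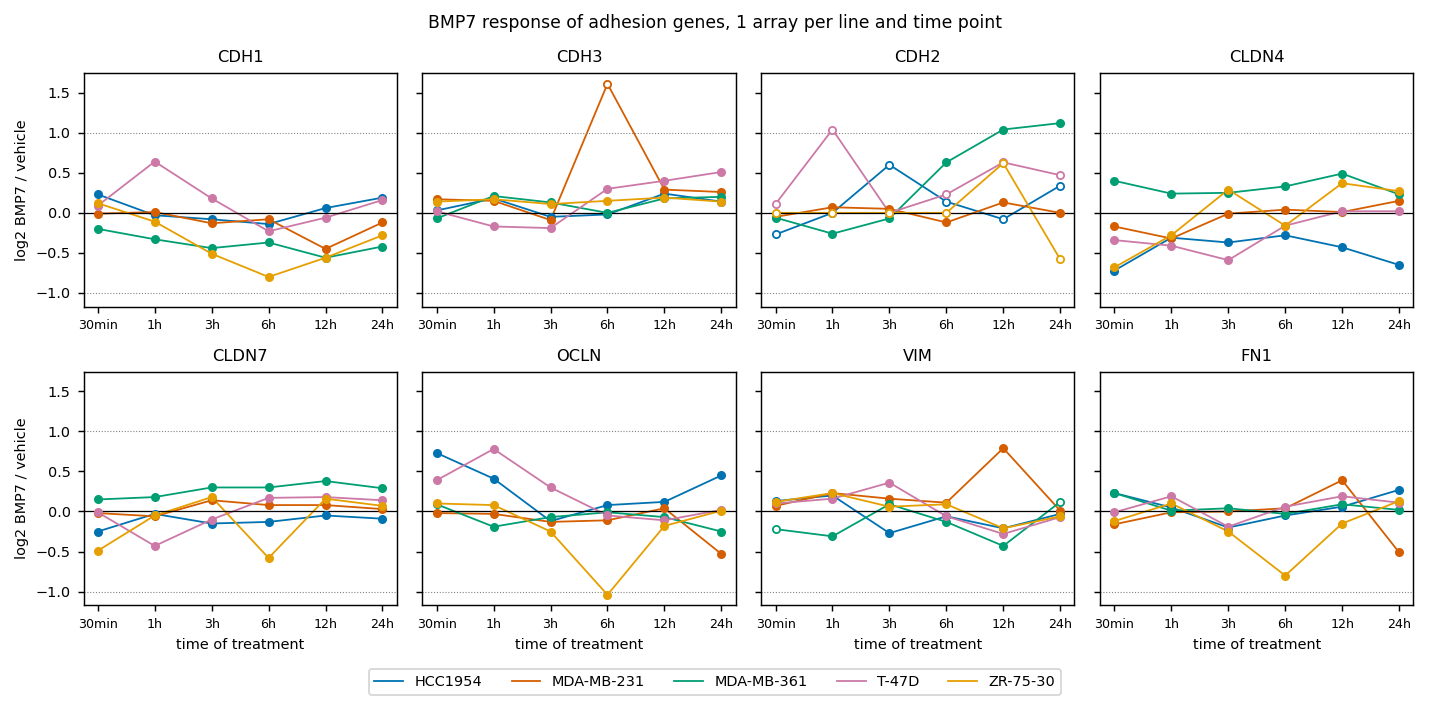
Log2 ratio of BMP7 over vehicle for 8 member genes at the 6 time points, evenly spaced rather than to scale, with 1 line for each cell line; the solid horizontal line marks no change, the dotted lines a 2-fold change, and open points lack a signal well above background in both channels. CLDN4 runs above 0 in MDA-MB-361 and below 0 in HCC1954 at all 6 time points, and CDH2 in MDA-MB-361 lies at 1.04 and 1.12 at 12 and 24 h.

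For CLDN3 the log ratio was -0.59 to -0.21, median -0.35, in HCC1954 and -0.56 to -0.30, median -0.43, in MDA-MB-361. It was -0.49 to -0.27, median -0.36, in T-47D, and -0.76 to -0.12, median -0.51, in ZR-75-30. All 24 of these arrays were below 0, and all 6 arrays on 1 side were found for 18.8% (HCC1954), 24.2% (MDA-MB-361), 10.6% (T-47D) and 10.7% (ZR-75-30) of all probes. In MDA-MB-231, where the gene was least expressed, values ran from -0.76 to 0.23 with a median of -0.16. The mean over lines was -0.37 (SE 0.04, adjusted p = 0.0851), and it passed with the authors' processed values (-0.40, adjusted p = 0.0295). At 30 min the log ratio was below 0 in each line. No change with time was called, the difference between 12 to 24 h and the first hour being -0.04 over lines (SE 0.10, adjusted p = 0.897 in limma). Within ZR-75-30 it was -0.40 (SE 0.23, adjusted p = 0.48), and in the other lines between -0.07 and 0.11. The second CLDN3 probe was above 0 on 18 of 30 arrays, with a mean of 0.09 (SE 0.09, adjusted p = 0.683), so the probes of this gene disagreed. With BMP7 always in Cy5, a constant shift by BMP7 and a dye effect of the probe cannot be told apart.

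**Figure D4:**
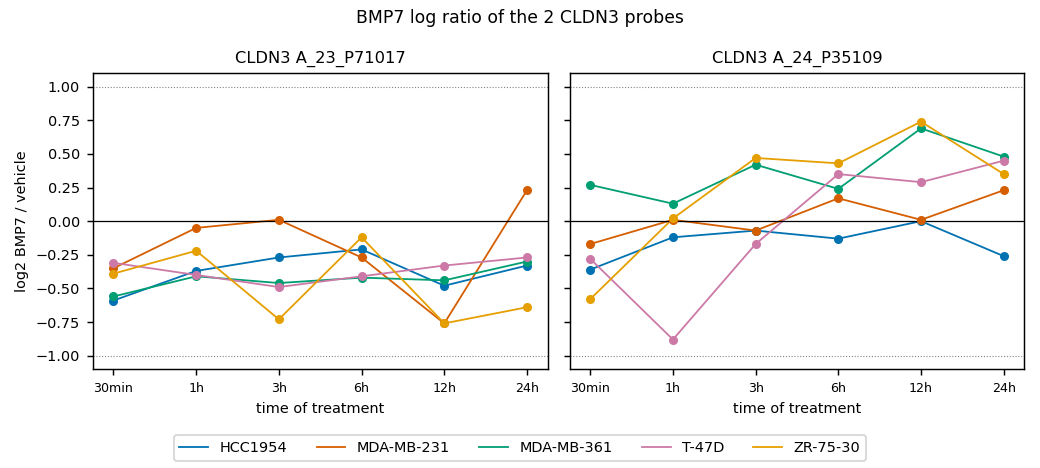
Log2 ratio of BMP7 over vehicle for the 2 CLDN3 probes by time point (evenly spaced) and cell line, with dotted lines at a 2-fold change. The brighter probe lies below 0 on 28 of 30 arrays and the second probe on 12.

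The change from the first hour to 12 and 24 h compares time points within a line, where a constant dye effect cancels. Averaged over lines, 2 of 14 probes passed, both upward, against 2.97% of all probes. An unadjusted p under 0.05 was found for 8 of the 14 and for 7190 of all 40940 probes tested. CLDN4 rose by 0.31 (SE 0.08, adjusted p = 0.0441), but the value was -0.01 after normexp correction with median scaling. The second CLDN3 probe rose by 0.49 (SE 0.10, adjusted p = 0.0235), whereas the brighter CLDN3 probe did not follow it. CDH1 had -0.25 (SE 0.08, adjusted p = 0.1) and OCLN -0.28 (SE 0.10, adjusted p = 0.144). Neither upward call held when a scan batch term was fitted, and no member passed among arrays of the first batch. Leaving out 1 array at a time, CLDN4 lost its call in 12 of 20 fits (0.27 to 0.35), namely without the 30 min or 12 h array of HCC1954 or ZR-75-30, the 30 min or 1 h array of MDA-MB-231, the 30 min, 1 h or 12 h array of MDA-MB-361, or the 1 h, 12 h or 24 h array of T-47D. The CLDN3 probe lost its call in 6 of 20 (0.43 to 0.55), without the 30 min or 12 h array of HCC1954 or ZR-75-30, the 30 min array of MDA-MB-231 or the 12 h array of MDA-MB-361. For comparison, ID1, ID2 and ID3 rose by 0.91 (adjusted p = 0.0201), 0.91 (adjusted p = 0.00682) and 0.80 (adjusted p = 0.00204) in the same fit.

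Within single lines, 2 of 70 tests passed, against 0.761% of all tests. No member passed in HCC1954 (0.0195% of all probes), MDA-MB-231 (0.132%) or MDA-MB-361. In ZR-75-30, CLDN4 had log ratios of -0.68, -0.28, 0.29, -0.16, 0.37 and 0.27 in order of time. Its arrays of the first hour were below 0 and its late arrays above 0, a rise of 0.80 (SE 0.17, adjusted p = 0.0428), against 0.839% of probes called in that line. The call was lost in 11 of 20 fits without 1 array (0.6 to 1.0), which were those without the 30 min, 12 h or 24 h array of ZR-75-30, a first-hour or late array of T-47D, a first-hour array of MDA-MB-231 or a late array of HCC1954. In T-47D, where 2.6% of probes were called, the second CLDN3 probe had -0.28, -0.88, -0.17, 0.35, 0.29 and 0.45 in order of time. It rose by 0.95 (SE 0.22, adjusted p = 0.0353), and the call was lost without the 1 h or the 24 h array of T-47D (0.64 to 1.25).

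CDH2 gave the largest difference of this kind without passing. In MDA-MB-361 its log ratio was -0.06, -0.26 and -0.07 up to 3 h and 0.63, 1.04 and 1.12 at 6, 12 and 24 h. The late values were well above background in both channels and higher than all values up to 3 h. The difference of 1.24 (SE 0.33, unadjusted p = 0.00156, adjusted p = 0.273 in limma) did not pass in that line, where 0.21% of probes did. In MDA-MB-231, the other line with CDH2 well above background, the log ratio stayed between -0.12 and 0.13 at all time points. The difference between lines in the change with time passed for none of the 14 probes by limma's F test, against 0.139% of all probes. CLDN4 alone was under 0.05 before adjustment (adjusted p = 0.597), as were 2979 of all 40940 probes tested.

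CLDN4 was the member whose log ratio differed between lines. It was below 0 on all 6 arrays in HCC1954, from -0.72 to -0.28 with a median of -0.40, and above 0 on all 6 in MDA-MB-361, from 0.23 to 0.49 with a median of 0.29. The background for such same-sided values is the 18.8% and 24.2% of probes given above for these lines. T-47D had -0.59 to 0.02, median -0.25, ZR-75-30 -0.68 to 0.37, median 0.05, and MDA-MB-231 -0.32 to 0.15, median 0.00. Tested against the mean of the other lines, CLDN4 was lower in HCC1954 by -0.47 (SE 0.11, adjusted p = 0.0452) and higher in MDA-MB-361 by 0.52 (SE 0.12, adjusted p = 0.028). These were the 2 of 70 member tests that passed, against 0.939% of all tests, with 0.373% called in HCC1954 and 1.41% in MDA-MB-361. No member passed in MDA-MB-231 (0.176%), T-47D (2.13%) or ZR-75-30 (0.6%). After normexp correction with median scaling CLDN4 had -0.23 in HCC1954 and 0.61 in MDA-MB-361, neither called, and the HCC1954 call was lost narrowly without the MDA-MB-231 6 h array (adjusted p = 0.0578), its 12 h array (adjusted p = 0.0621) or the ZR-75-30 6 h array (adjusted p = 0.0516). In vehicle-treated cells HCC1954 had the highest CLDN4 level and MDA-MB-361 the second lowest.

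No other member passed this test. The largest difference was that of FN1 probe A_24_P334130, 0.78 in MDA-MB-361 (SE 0.20, adjusted p = 0.0533 in limma). It passed in 4 alternative settings and changed sign in 1. The same probe had -0.47 in T-47D (SE 0.19, adjusted p = 0.228). In neither line was it well above background on any array. CLDN7 was above 0 on all 6 MDA-MB-361 arrays (0.15 to 0.38) and below 0 on all 6 in HCC1954 (-0.25 to -0.03), and against the mean of the other lines it had 0.32 in MDA-MB-361 (SE 0.09, adjusted p = 0.0817). CDH1 was below 0 on all 6 MDA-MB-361 arrays, from -0.56 to -0.20 with a median of -0.40, and its difference from the other lines was -0.31 (SE 0.11, adjusted p = 0.155). Same-sided values of this kind were found for 24.2% of all probes in MDA-MB-361 and 18.8% in HCC1954. TACSTD1 was higher in T-47D than in the others by 0.27 (SE 0.06, adjusted p = 0.0416), with values from 0.00 to 0.57, a call that was lost with the authors' processed values (0.23, adjusted p = 0.104) and in the first scan batch alone (0.23, adjusted p = 0.0835), and the value was 0.01 after normexp correction with median scaling. VIM in MDA-MB-231 had 0.01 to 0.79, median 0.14, all above 0 (6.35% of probes were same-sided in that line), and its difference from the other lines was 0.25 (SE 0.10, adjusted p = 0.216). The highest value was that of the 12 h array, with the others at 0.23 or below. The second VIM probe ran from -0.04 to 1.19 there and was above 0 on 5 arrays.

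By the 2-fold rule for single arrays, 7 of the 420 member values were events (1.67%), 5 up and 2 down, against 1.87% of the values of all probes. With both channels well above background there were 4 (1.09%, against 0.798%), namely CDH2 in MDA-MB-361 at 12 h (2.06-fold) and 24 h (2.17-fold), the second VIM probe in MDA-MB-231 at 12 h (2.28-fold), and OCLN in ZR-75-30 at 6 h (2.05-fold lower). Of the remaining 3, CDH3 in MDA-MB-231 at 6 h (3.04-fold) and VIM in MDA-MB-361 at 12 h (2.55-fold lower) were not well above background in either channel, and CDH2 in T-47D at 1 h (2.05-fold) was not in the vehicle channel. On the MDA-MB-231 12 h array several members stood away from the other time points together, with 0.79 and 1.19 for the VIM probes, -0.45 for CDH1, -0.76 for CLDN3 and -0.40 for TACSTD1. At 24 h the same line had 0.01 and -0.04 for VIM and -0.12 for CDH1. The 12 h array had the brightest vehicle channel of all arrays (75th percentile of 2369). Its 525 spots marked as outliers were the most after those of the 6 h array of that line. The part of these features in the values was not tested. With 1 array per line and time point, no event has a replicate.

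From lists of other junction genes, 1 of 24 tight junction genes and 1 of 12 catenins and nectins changed with time over lines by the same test, against 2.97% of all probes. TJP1, a scaffold protein of tight junctions, fell by 0.24 (adjusted p = 0.0324 in limma), and PVRL4, a nectin, rose by 0.50 (adjusted p = 0.0468), although it was not well above background on any vehicle array of MDA-MB-231. None of the further cadherins, desmosome genes, epithelial genes, mesenchymal genes or transcription factors of the lists passed, and the median change in these lists lay between -0.04 and 0.05 against 0.00 over all probes.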

How the data were processed

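Vehicle and BMP7 RNA were hybridised to 44K whole human genome oligonucleotide arrays. Per the file headers, the authors' scans were quantified with Feature Extraction 9.5.1.1, which subtracted background and normalized the dyes (linear and lowess), and probe positions are on hg18. The deposited intensity columns hold the processed signal of each channel, the deposited log10 ratio is Cy5 over Cy3, and the authors' processed log2 values of the same arrays served as an alternative. Spots marked as outliers by the software and control spots were removed, and repeated spots of a probe were averaged. Vehicle intensities were scaled between arrays (Aquantile) and log2-transformed, and log ratios were converted to log2 and centred on each array's median.

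Fits over all probes used limma 3.58.1 in R 4.3.3 with Benjamini-Hochberg adjustment. The line fits had the slide as a random block, so a fitted difference can depart slightly from the difference of line means. The mean over lines was fitted on 5 line means, and the change with time on 15 groups of 2 arrays (line by period), which pool the spread. Where a gene had several probes, the one with the highest mean vehicle level stood for it. Where a line was not well above background on any of its arrays, the fold is given as a bound, taken without normexp correction, or left out. Scripts were tested on simulated data. Groups were taken from the labels. Named genes were the members, up to 4 genes per list with the largest vehicle contrast among those called and up to 3 with the largest BMP7 change, ID1, ID2 and ID3, and the 3 genes most correlated with CDH1 and with VIM, of which 1 is not reported here. The members, lists and tests were chosen with earlier results of these data known. The alternatives were other background correction and scaling, the authors' values, probes well above background in both channels, the scan batch, the slide and leaving out lines or arrays. Promoter stretches were taken from RefSeq. The number of arrays limits the precision.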

Additional observations from a re-analysis of the deposited data

Results flagged for a closer look

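In 11 of 100 groups of 6 arrays, counting levels and log ratios of each gene and line, 1 array lay apart from the others by Dixon's criterion, where chance gives about 1 in 20. The MDA-MB-231 6 h array did so for the vehicle level of CDH2 (7.98, others 6.71 to 6.84), CDH3 (3.73, others 5.50 to 6.04) and FN1 (10.49, others 11.03 to 11.20), and for the log ratio of CDH3 (1.61, others -0.09 to 0.29). The MDA-MB-231 12 h array did so for the log ratios of CDH1 (-0.45, others -0.13 to 0.01), VIM (0.79, others 0.01 to 0.23) and TACSTD1 (-0.40, others 0.01 to 0.09). The remaining arrays were MDA-MB-231 at 24 h for the log ratio of OCLN (-0.53), ZR-75-30 at 6 h for the log ratio of OCLN (-1.04) and the vehicle level of TACSTD1 (14.80, others 15.10 to 15.24), and HCC1954 at 3 h for the log ratio of TACSTD1 (-0.06).

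The BMP7 log ratio differed between lines, by limma's test of a line against the mean of the others, for CLDN4 in HCC1954 (-0.47) and MDA-MB-361 (0.52) and for TACSTD1 in T-47D (0.27). All 6 arrays were above 0 in MDA-MB-361 and below 0 in HCC1954 for CLDN4 (means 0.32 and -0.46) and for CLDN7 (means 0.27 and -0.12). Values on 1 side of 0 on all 6 arrays were found for 24.2% of all probes in MDA-MB-361 and 18.8% in HCC1954. The difference between these lines themselves was not tested.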

How the results depend on the processing

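The differences of MDA-MB-231 in vehicle level kept their direction. Of 165 values for the 14 probes and TACSTD1 over 11 settings, 161 kept direction and call and 4 lost the call, and none changed sign, but their size was smaller with normexp and loess, from 3.08 to 1.1 for CDH2 and from 2.09 to 0.53 for FN1 probe A_24_P334130. The BMP7 results, which lie near the threshold, varied more: of 977 values, 883 kept both, 71 lost the call, 18 gained it and 5 changed sign. The cause was not tested for any of these. After normexp with median scaling the late change was -0.17 for CLDN7 and -0.01 for CLDN4, and FN1 probe A_24_P334130 against the other lines had -0.11 in MDA-MB-361 and 0.13 in T-47D (0.01 there with loess). The count of members called for the mean over lines was 0, and 1 with the authors' values and 1 with both channels well above background. The late change over lines, 2 members, gave 1 with the slide as a block and 0 with median scaling, the first scan batch alone, the batch as a term, 3 to 24 h against 30 min, or without MDA-MB-231, MDA-MB-361, T-47D or ZR-75-30, and 0 to 3 without 1 array. Within lines, 2 calls became 4 with both channels well above background, 1 with the authors' values, the batch term, or without T-47D or ZR-75-30, and 0 with median scaling or without HCC1954, MDA-MB-231 or MDA-MB-361, and 0 to 3 without 1 array. Lines against the others, 2 calls, gave 6 with normexp and loess, 4 in the first batch alone and 0 with median scaling. The 7 events became 2 with normexp and loess (0.476% against 0.253% of all values), 21 with median scaling (5.0% against 2.74%) and 4 with both channels well above background (1.09% against 0.798%). In each of these cases the share was above that of all values. It was below with the authors' values, which gave 6 events (1.43% against 2.02%), and without these changes. Chosen after seeing the data, leaving out the MDA-MB-231 6 h array gave 1 late change over lines and 1 call between lines, and leaving out its 12 h array gave 1 call between lines.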
